A study of Mus musculus with 15 samples.

Results

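The mitochondrial respiratory chain and ATP synthase are built mostly from subunits encoded in the nucleus, and 80 of those genes are described here over single kidney cells and kidney cortex. Genes were chosen by symbol, as the Nduf subunits of complex I, Sdha to Sdhd of complex II, the Uqcr subunits of complex III, the Cox4 to Cox8 subunits of complex IV and the Atp5 subunits of complex V, leaving out assembly factors, Ndufa4l2 and Cox4i2. The 80 members, of 19938 genes with a probe set of their own, comprise 35 genes of complex I, 4 of complex II, 8 of complex III, 16 of complex IV and 17 of complex V. They are read by 105 of the 35557 probe sets on the array. A gene with several probe sets, as 17 members have, is given by the brightest over the 15 arrays. Cox7c, Ndufb4 and Ndufb4b match the symbols too, but only on probe sets that carry several symbols, so they are not among the members. Ndufa4 is kept in complex I by its symbol, although its protein is now counted with cytochrome c oxidase.

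In these complexes, electrons from NADH enter at complex I and electrons from succinate at complex II. They pass through complex III and cytochrome c to complex IV, which reduces oxygen, and the proton gradient built on the way drives ATP synthesis by complex V. Kidney cortex is among the tissues richest in mitochondria, because the reabsorption of salt and solutes by its tubules is paid for in ATP.

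The values are deposited log2 signals of Affymetrix mouse gene arrays. The 5 JG arrays each hold 1 fluorescent cell of the juxtaglomerular complex, the renin-producing site at the glomerular arteriole, from adult male Ren1c-YFP mice (cells 4 to 8). The 4 MM arrays each hold 1 cell of the metanephric mesenchyme, the precursor tissue of nephrons, taken on embryonic day 11.5. Their mice carried the transgene Tg(Crym-EGFP)GF82Gsat, and sex is recorded as unknown (cells 14, 15, 16 and 19). Diluted cortex (libraries A, B and C) is a lysate of adult male Ren1c-YFP kidney cortex, a mixture of cell types, that was diluted and amplified with the single cell protocol SCAMP. The labels record 32 rounds of amplification for the cells and for diluted cortex. Standard cortex (libraries A, B and C) is cortex of adult male Ren1c-YFP kidneys too, lysed and labelled with the NuGEN WT-Ovation Pico kit, with 1 round recorded. The strain is unspecified throughout. Both reporters mark cells by the activity of a promoter, and 1 label line calls the JG mice Ren1d GFP where the others say Ren1c-YFP. Single cells are unpooled and no label ties a cell to an animal, so each set of cells counts as 1 sample: its comparisons are differences between log2 means, given with the SD of the cells and without a test. In cortex, fewer cells of a type and less RNA per cell cannot be told apart.

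A gene is called above background on an array where its signal exceeds the 99th percentile of 1210 probe sets for olfactory and vomeronasal receptors, genes not thought to be active in kidney. That threshold was 7.55 to 7.92 in JG cells and 7.13 to 7.56 in MM cells. On cortex arrays it was lower, at 6.18 to 6.30 with dilution and 6.30 to 6.51 with standard labelling. The share of all 19938 genes above background was 6.87% to 14.2% in JG cells, 10.9% to 21.1% in MM cells, 48.3% to 50.5% in diluted cortex, and 43.7% to 48.2% with standard labelling. Of 4 measured markers of renin cells, 2 to 4 were above background in each JG cell and 0 or 1 in each MM cell, with Crip1 at 11.96 to 13.01 in JG cells. Ren1 and Akr1b7 have no probe set of their own in the annotation used here. Of 8 markers of the mesenchyme, 2 to 4 were above background in each MM cell and 1 to 4 in each JG cell, so this list did not set the MM cells apart. Six2 exceeded background in 2 of 4 MM cells and in 0 of 5 JG cells. Cited1 exceeded it in MM cells 14, 15 and 19 and in JG cells 4, 5, 6 and 8. Crym, the gene named in the MM reporter, did so in 3 of 4 MM cells and 1 of 5 JG cells. Its means were 7.57 in MM cells, 7.25 in JG cells and 11.10 in diluted cortex. All 13 proximal tubule markers were above background on every cortex array, against 0 to 3 in a JG cell and 0 to 2 in an MM cell. Their median level was 6.36 to 6.51 in JG cells, 6.09 to 6.54 in MM cells, 12.07 to 12.15 in diluted cortex, and 11.51 to 11.65 with standard labelling. Endothelial (4), leukocyte (4) and thick ascending limb (3) markers were at or under background in all 5 JG cells, while 0 to 2 of 5 smooth muscle, 0 or 1 of 2 podocyte and 0 to 2 of 3 ureteric bud markers were above it. In MM cells the leukocyte, thick ascending limb and podocyte markers were at or under background, and the markers above it were Foxd1 of the stroma in cells 14 and 19, Emcn of the endothelium in cell 14, and Gata3 of the ureteric bud and Myl9 of smooth muscle in cell 19. Cells 14 and 19 are also the MM cells with the most members above background, and the part of these markers in that was not tested.

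A larger share of the members than of all genes was above background in each cell. Of the 80 members, 31, 40, 53, 56 and 41 were above background in JG cells 4 to 8, and 72, 67, 55 and 74 in MM cells 14, 15, 16 and 19. The number was 77 on each diluted cortex and each standard cortex array, and the same 3 genes of complex IV, Cox7b2, Cox8b and Cox8c, were missing from all 3 diluted cortex arrays. Because members are bright in cortex, they are set beside the 1755 genes whose diluted cortex mean was 10 or more, 72 members included. Of those 72 members, 41.7%, 54.2%, 70.8%, 75% and 54.2% were above background in JG cells 4 to 8, against 22.1%, 20%, 28.3%, 37.5% and 32.6% of all 1755 genes. In MM cells 14, 15, 16 and 19 the shares were 98.6%, 88.9%, 75% and 97.2% of the bright members, against 64.3%, 52.3%, 33.2% and 63.8% of all bright genes. The members thus exceeded the bright genes in each of the 9 cells, as the plot of shares by array shows. The sets were not matched on level: the median of the 80 members was 12.10 to 12.14 on diluted cortex arrays, while the bright genes start at 10. The part of level in these shares was not tested.

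**Figure D1:**
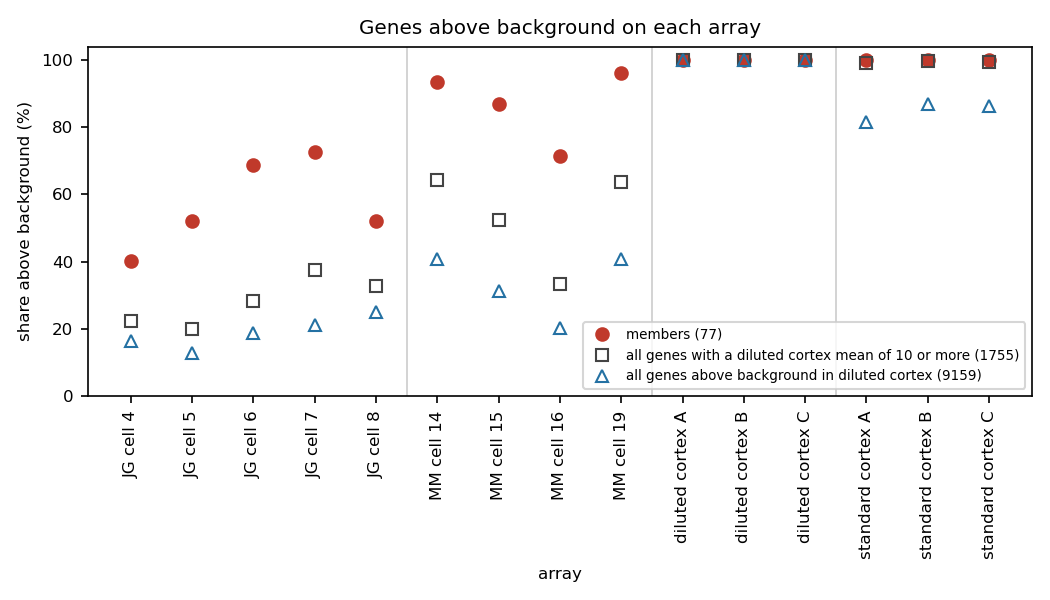
Share of genes above background on each array, in percent (y axis), by array (x axis). Filled circles are the 77 members above background in diluted cortex, squares the 1755 genes with a diluted cortex mean of 10 or more, and triangles all 9159 genes above background in diluted cortex. In all 9 cells the members lie above both sets of genes, with JG cells 6 and 7 the highest JG cells and MM cell 16 the lowest MM cell.

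Complex V was detected in full in the MM cells and had the highest share of members above background in JG cells 6, 7 and 8. All 17 of its members were above background in each of the 4 MM cells, and 8, 9, 16, 14 and 13 in JG cells 4 to 8. For the 35 complex I members the counts were 14, 15, 21, 24 and 14 in JG cells and 34, 30, 21 and 33 in MM cells. Of the 16 complex IV members, 5, 9, 10, 10 and 7 were above background in JG cells and 11, 11, 9 and 12 in MM cells, with 13 on each cortex array. Of the 8 members of complex III, 4, 6, 3, 6 and 5 passed in JG cells and 7, 5, 6 and 8 in MM cells. Complex II, with 4 genes, had 0, 1, 3, 2 and 2 above background in JG cells and 3, 4, 2 and 4 in MM cells.

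Within a cell, members were mostly either bright or at background. Over the 77 members above background in diluted cortex and the 9 cells, 29.6% of the 693 values were at or under the threshold and 49.8% were more than 3 log2 units over it, while 7.79% lay within 1 log2 unit above it. In JG cells 4 to 8, 15, 19, 30, 37 and 23 of the 77 members lay within 1 log2 unit of their diluted cortex mean. These are 19.5%, 24.7%, 39.0%, 48.1% and 29.9% of the members, against 32.7%, 32.9%, 34.2%, 35.8% and 34.1% of all genes above background in diluted cortex, so in JG cells 4, 5 and 8 the members' share was the lower one. Among the bright genes the shares were 5.81%, 5.64%, 9.46%, 16.6% and 9.97%. In MM cells 14, 15, 16 and 19 the numbers were 53, 48, 29 and 56, or 68.8%, 62.3%, 37.7% and 72.7% of the members, against 40.0%, 36.7%, 34.3% and 39.1% of the genes above background in diluted cortex and 36.8%, 27.6%, 10.8% and 36.0% of bright genes. In MM cell 16 the members' share was near that of the genes above background in diluted cortex. The pattern of bright and dim members differed from cell to cell, above all among the JG cells, as the heat map shows.

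**Figure D2:**
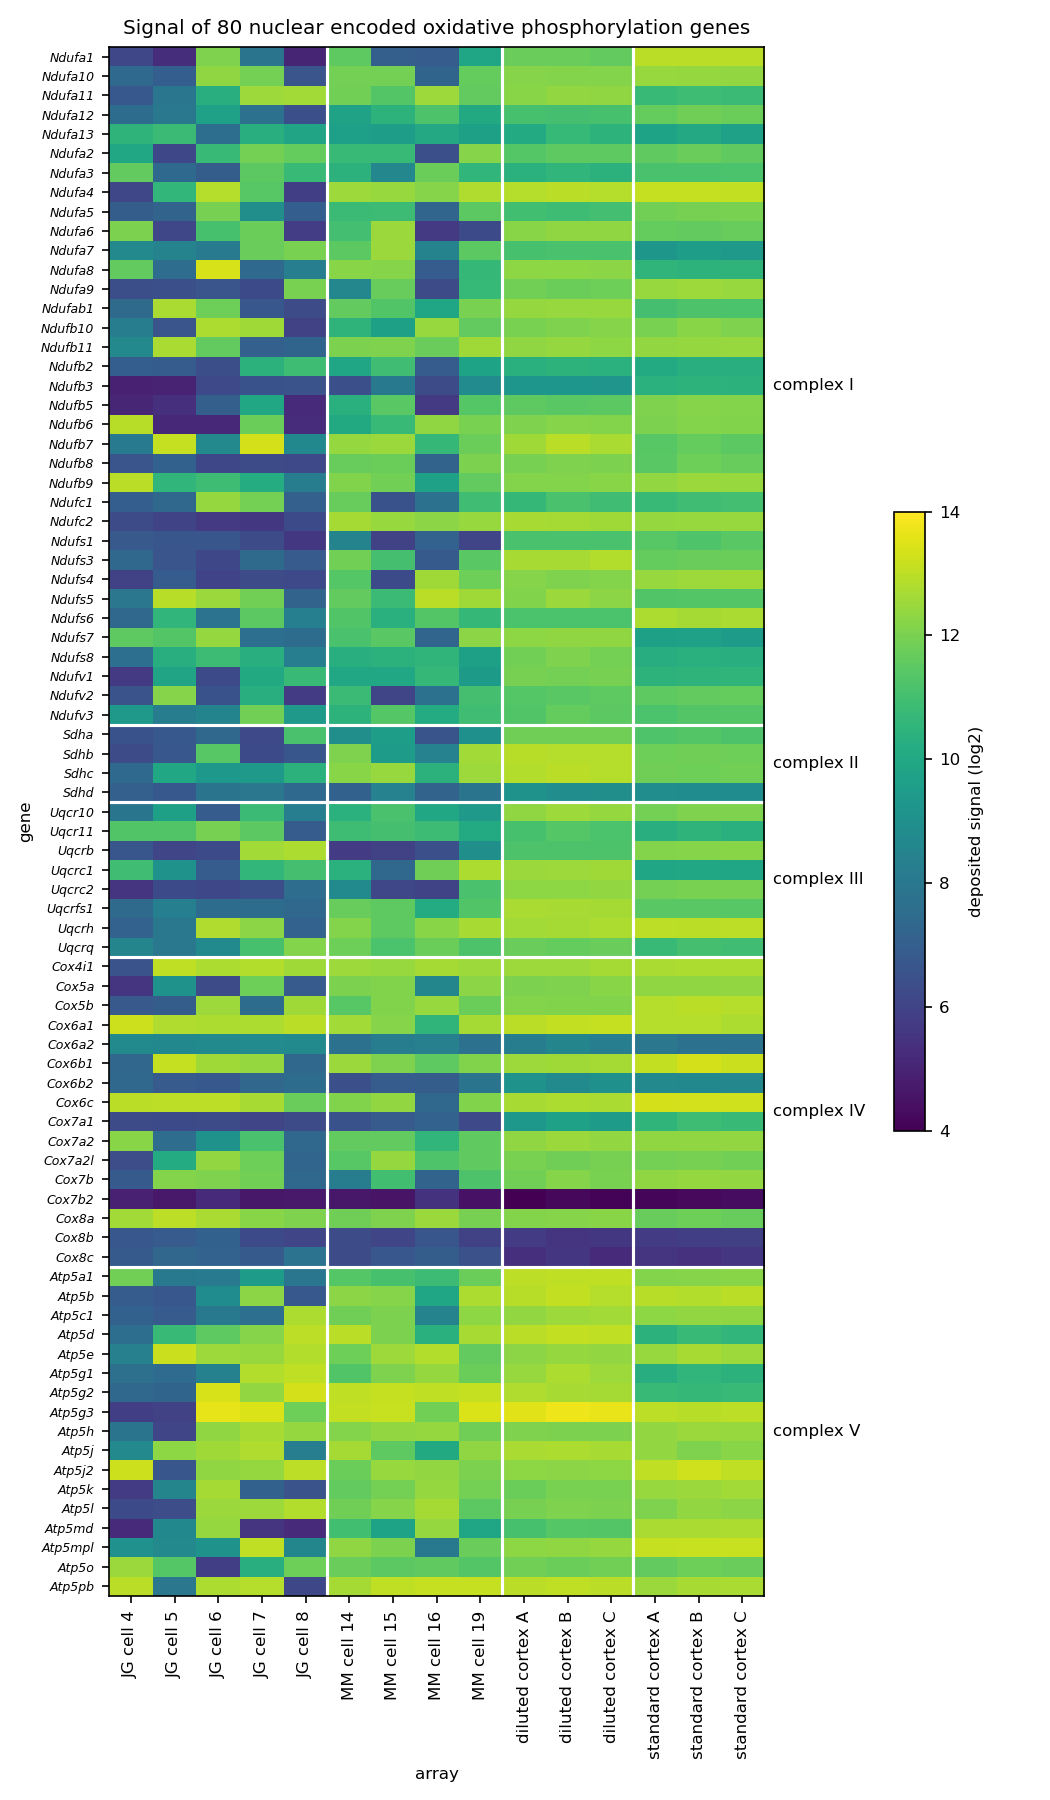
Deposited log2 signal (colour) of the 80 members (rows, by complex) on the 15 arrays (columns). Cortex arrays are bright for nearly all members, MM cells 14, 15 and 19 for most, and each JG cell shows a different mixture of bright and dim members, while Cox7b2 and Cox8b are dim in every column.

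The median signal over the 80 members was 7.36, 7.94, 9.22, 10.73 and 7.71 in JG cells 4 to 8, 11.50, 11.40, 10.14 and 11.58 in MM cells 14, 15, 16 and 19, 12.10 to 12.14 in diluted cortex, and 11.81 to 11.84 with standard labelling. All 5 JG medians but that of cell 7 lay below all 4 MM medians. By complex, the mean of the array medians was 8.16 ± 1.32 in JG cells, 10.81 ± 0.77 in MM cells and 11.99 ± 0.06 in diluted cortex for complex I (SD, n = 5, 4 and 3). For complex V it was 10.44 ± 2.40 in JG cells, 12.05 ± 0.23 in MM cells and 12.48 ± 0.08 in diluted cortex (SD, n = 5, 4 and 3). JG cells 4 and 5 differ from the rest in another abundant class too: the median of 55 cytosolic ribosomal protein genes was 8.44 and 8.38 in them, against 12.32 to 12.36 in JG cells 6 to 8 and 12.43 to 12.60 in MM cells. The part of this gap in the results below was not tested, and the main counts are also given without those cells.

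JG cells were compared with diluted cortex, which had the same amplification. Of the 80 members, 68 were lower in JG cells by at least 1 log2 unit, the size used here to count a difference, and the median difference was -2.59. All 68 were among the 77 members above background in diluted cortex, and 64 of the 72 bright members were lower. Over all genes 27.7% were lower by that size, over the genes above background in diluted cortex 59.6%, and over the bright genes 94.7%, with a median difference of -3.68 for the bright genes and -2.67 for the bright members. By the group medians the bright members lay nearer to cortex than the bright genes as a whole, but this did not hold in each cell. Over the 77 members above background in diluted cortex, the median was -4.32, -3.48, -1.49, -0.72 and -3.95 in JG cells 4 to 8. The bright genes had -4.07, -4.05, -3.93, -3.63 and -4.00. Genes picked for being high in diluted cortex can hardly exceed it, and this holds for members and for the other genes alike. The receptors, which hold the background, were 1.02 higher in JG cells by their median; in MM cells they were 0.81 higher. Without JG cells 4 and 5, 59 members were lower and the median difference was -2.02. The shares above, which use all JG cells, were not counted anew for this.

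By complex, the median JG minus diluted cortex difference was -2.90 for complex I, -3.91 for II, -3.00 for III, -1.42 for IV and -2.44 for V. Ndufc2, an accessory subunit of the membrane arm, had 6.28, 6.07, 5.69, 5.63 and 6.25 in JG cells 4 to 8, 12.64, 12.45, 12.27 and 12.44 in MM cells 14, 15, 16 and 19, 12.67, 12.65 and 12.58 in diluted cortex and 12.41, 12.47 and 12.45 in standard cortex. Every JG cell was under background, while every MM cell was near the cortex level. The JG minus diluted cortex difference was -6.65 (JG mean 5.98 ± 0.31, SD, n = 5, and diluted cortex mean 12.64 ± 0.05, SD, n = 3), the lowest of the 77 members above background in diluted cortex. Ndufb8, another accessory subunit, had 6.63, 7.10, 6.17, 6.28 and 6.22 in JG cells, 11.66, 11.76, 7.20 and 12.02 in MM cells and 11.94, 12.06 and 12.01 in diluted cortex. It was at background in all JG cells and in MM cell 16. Ndufs4, an accessory subunit of the peripheral arm, had 5.95 to 6.93 in JG cells, 11.35, 6.26, 12.58 and 11.80 in MM cells and 12.06 to 12.19 in diluted cortex. The other extreme of complex I was Ndufa13, at 10.50, 10.83, 7.60, 10.26 and 9.83 in JG cells and 10.11, 10.69 and 10.47 in diluted cortex, a difference of -0.62. JG cell 6 set most of it: without that cell the difference was -0.07, and with quantile normalization it was 1.05.

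Members at background in all JG cells numbered 10, of which 8 were above background in diluted cortex: Ndufb3, Ndufb8, Ndufc2, Ndufs1, Ndufs3, Ndufs4, Cox6b2 and Cox7a1. With the receptor 95th percentile as background 6 members were at background in all JG cells. Among the genes above background in diluted cortex 63.1% were at background in all 5 JG cells, and among bright genes 43.1%, against 5 of 72 bright members. Ndufs1 and Ndufs3 encode core subunits of the peripheral arm. Ndufs1 had 5.64 to 6.81 in JG cells, 8.46, 5.93, 7.15 and 6.09 in MM cells and 11.13 to 11.15 in diluted cortex, so it was nearly always dim in both kinds of cell. Ndufs3 had 6.16 to 7.45 in JG cells, 11.88, 11.03, 6.85 and 11.46 in MM cells and 12.69 to 12.83 in diluted cortex.

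At the other end, 13 members were above background in all 5 JG cells: Ndufa7, Ndufb7, Ndufb9, Ndufv3, Uqcrq, Cox6a1, Cox6a2, Cox6c, Cox8a, Atp5a1, Atp5e, Atp5j and Atp5mpl. With the receptor 95th percentile the number was 29. All genes above background in diluted cortex gave 7.06% and bright genes 8.55%, against 12 of 72 bright members. Some members only just passed in a cell, as Uqcrq at 7.99 and Atp5a1 at 8.03 did in JG cell 5, where the threshold was 7.92. Passing in all JG cells is not a cortex level either, since the JG minus diluted cortex difference of Atp5a1 was -3.94. In all 4 MM cells 51 members were above background, against 13.7% of genes above background in diluted cortex and 25.5% of bright genes, with 50 of the 72 bright members. The 12 members other than Cox6c were above background in all 9 cells, a pattern of 6.07% of the genes above background in diluted cortex. Ndufc2 was the only member above background in all MM cells and no JG cell, which 0.699% of those genes were. Cox7a1 was the only member above background in cortex and in 0 of 4 MM cells, where 43.0% of the genes above background in diluted cortex stood.

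Promoters are shown for 4 of these genes, chosen after their values were seen: Ndufc2 and Ndufb8, at background in all JG cells, and Cox6a1 and Cox8a, near the cortex level in them. RefSeq windows of 300 bases on GRCm38.p6, from 250 before to 50 after the start of transcription, were searched on both strands for motifs of factors known to act on respiratory genes. These were GCGCANGCGC for nuclear respiratory factor 1 (NRF1), CCGGAAG as the core of the ETS family, which includes GABPA, and AAGATGGC for YY1. No motif contains another. Capitals mark every match, on either strand, and lines run 5′ to 3′ on the strand of the gene.
Ndufc2, chr7:97399753-97400052 (plus strand): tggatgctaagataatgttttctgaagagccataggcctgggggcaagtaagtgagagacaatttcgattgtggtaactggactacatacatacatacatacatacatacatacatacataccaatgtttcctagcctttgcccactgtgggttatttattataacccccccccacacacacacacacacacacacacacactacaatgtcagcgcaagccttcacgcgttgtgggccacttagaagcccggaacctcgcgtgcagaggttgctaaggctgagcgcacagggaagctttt
Ndufb8, chr19:44555393-44555692 (minus strand): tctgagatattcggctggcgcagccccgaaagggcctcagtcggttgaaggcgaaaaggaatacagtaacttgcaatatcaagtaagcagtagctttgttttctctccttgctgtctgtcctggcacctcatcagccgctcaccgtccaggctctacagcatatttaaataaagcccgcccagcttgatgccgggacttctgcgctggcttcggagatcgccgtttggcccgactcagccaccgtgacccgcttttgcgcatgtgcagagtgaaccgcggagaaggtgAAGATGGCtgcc
Cox6a1, chr5:115348909-115349208 (minus strand): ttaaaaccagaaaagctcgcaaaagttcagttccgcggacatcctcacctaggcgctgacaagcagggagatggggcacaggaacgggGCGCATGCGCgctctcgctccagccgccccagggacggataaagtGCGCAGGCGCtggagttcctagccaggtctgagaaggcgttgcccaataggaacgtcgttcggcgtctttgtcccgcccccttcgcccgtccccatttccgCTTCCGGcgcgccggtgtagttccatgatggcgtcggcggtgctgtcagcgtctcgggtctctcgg
Cox8a, chr19:7217567-7217866 (minus strand): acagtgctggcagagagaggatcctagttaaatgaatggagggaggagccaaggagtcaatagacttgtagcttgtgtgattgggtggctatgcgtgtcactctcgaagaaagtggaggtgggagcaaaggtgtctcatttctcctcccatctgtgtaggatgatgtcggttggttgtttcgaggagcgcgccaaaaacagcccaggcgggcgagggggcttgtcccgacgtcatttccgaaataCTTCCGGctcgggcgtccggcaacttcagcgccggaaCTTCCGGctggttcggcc
The Ndufc2 window holds 0 matches and the Ndufb8 window 1 YY1 match, in its transcribed part. The Cox6a1 window holds 3 matches, with a pair of NRF1 matches upstream of an ETS match, and the Cox8a window holds 2 ETS matches. A window was found for 67 of the 80 members. The NRF1 motif was in 16 of these, 23.9%, against 7.17% of 17492 protein coding genes. The ETS core was in 17, 25.4% against 12.9%, and the YY1 motif in 10, 14.9% against 3.57%. Any of the 3 was in 37 of the 67 members, 55.2%, against 21.0% of protein coding genes. These matches describe the letters and do not show binding. Whether matches go with the level in JG cells was not tested, and 4 windows picked by level cannot show it. Ndufs3 and Ndufs4, also at background in all JG cells, hold the ETS core and the YY1 motif in that order.

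Complex II oxidizes succinate and is part of the citric acid cycle as well. Sdha, its flavoprotein, had 6.53, 6.74, 7.38, 6.20 and 11.13 in JG cells, 8.94, 9.61, 6.61 and 9.02 in MM cells and 11.83, 11.81 and 11.83 in diluted cortex. JG cell 8 alone was above background among JG cells, and every cell of either kind was below every diluted cortex array. Sdhb, the iron-sulfur subunit, had 6.29, 6.70, 11.40, 6.25 and 6.67 in JG cells, 12.06, 9.54, 8.45 and 12.61 in MM cells and 12.87 to 12.92 in diluted cortex. Here JG cell 6 alone was bright, a different cell from that for Sdha. Sdhc, a membrane anchor, was above background in 4 of 5 JG cells at 9.32 to 10.41 and at 7.42 in the other, in MM cells it had 10.44 to 12.52, and in diluted cortex 12.85 to 12.96. Sdhd, the other anchor, was dim everywhere, at 6.76 to 7.95 in JG cells, 7.10 to 8.45 in MM cells and 8.88 to 9.12 in diluted cortex. The differences from diluted cortex were -4.23, -5.43, -3.58 and -1.57 in JG cells and -3.28, -2.23, -0.99 and -1.33 in MM cells, for Sdha, Sdhb, Sdhc and Sdhd in that order. For Sdhc MM cell 16 was the low one, and without it the MM difference was -0.51.

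Complex III passes electrons from ubiquinol to cytochrome c. Uqcrc2, a core protein, had 5.53, 6.26, 6.16, 6.40 and 7.59 in JG cells, 8.77, 6.14, 6.07 and 11.13 in MM cells, 12.31, 12.31 and 12.38 in diluted cortex and 11.90, 12.01 and 11.98 in standard cortex. In JG cell 8 it stood just over that array's threshold, and in the other JG cells under it. Uqcrfs1, the Rieske iron-sulfur protein, had 7.46, 8.33, 7.54, 7.54 and 7.39 in JG cells, 11.67, 11.52, 10.15 and 11.29 in MM cells and 12.65 to 12.71 in diluted cortex, so no JG cell reached any MM cell. Uqcrb, which helps to bind ubiquinone, behaved differently, with 6.66, 6.10, 6.24, 12.62 and 12.78 in JG cells, 5.72, 5.94, 6.46 and 8.99 in MM cells and 11.21 to 11.22 in diluted cortex. JG cells 7 and 8 exceeded cortex, and the other 3 JG cells and 3 of the MM cells were at background. Uqcr11 had 11.28, 11.27, 11.97, 11.48 and 6.89 in JG cells on its brightest probe set, close to 11.08 to 11.35 in diluted cortex in all but cell 8, while its other probe set read 7.46 in JG cell 4 and 8.11 in JG cell 8. Cyc1, the nuclear gene of cytochrome c1, belongs to complex III too but falls outside the symbols used. It had 11.64, 7.93, 7.44, 12.13 and 6.94 in JG cells, 11.60 to 12.43 in MM cells and 12.43 to 12.55 in diluted cortex.

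Complex IV, cytochrome c oxidase, had the smallest JG minus diluted cortex difference by its median, -1.97 over the 13 members above background in diluted cortex. Cox6a1, the widely expressed form of subunit VIa, had 13.22, 12.80, 12.78, 12.77 and 12.96 in JG cells, 12.60, 12.19, 10.54 and 12.66 in MM cells and 12.95, 13.06 and 13.12 in diluted cortex. Cox8a, the widely expressed form of subunit VIII, had 12.63, 13.01, 12.73, 12.22 and 12.07 in JG cells, 11.84, 12.05, 12.49 and 11.95 in MM cells and 12.13, 12.17 and 12.21 in diluted cortex. Both were bright in all 9 cells, with JG minus diluted cortex differences of -0.14 for Cox6a1 and 0.36 for Cox8a, the second of which turned to -0.15 with array median centring and -0.69 with receptor median centring. Cox4i1, the main form of subunit IV, was as bright in JG cells 5 to 8, at 12.56 to 13.06, and in the MM cells, at 12.44 to 12.66, as in diluted cortex, at 12.55 to 12.65, but read 6.54 in JG cell 4. That cell set its difference, which was -1.03 with all JG cells and 0.22 without cell 4. Cox5a had 5.56, 9.10, 6.30, 11.79 and 6.88 in JG cells, 12.03, 12.09, 8.58 and 12.26 in MM cells and 12.03 to 12.24 in diluted cortex. Cox6c had 12.98, 13.02, 13.01, 12.69 and 11.70 in JG cells, 12.10, 12.36, 7.40 and 12.09 in MM cells and 12.71 to 12.79 in diluted cortex.

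The isoforms of complex IV known from muscle or testis were at or near background in the cells. Cox7a1, the heart and muscle form of subunit VIIa, had 6.09 to 6.34 in JG cells, 6.20 to 7.13 in MM cells, 9.33 to 9.71 in diluted cortex, and 10.54 to 10.88 with standard labelling. It was above background in cortex only. Cox6a2, the heart and muscle form of subunit VIa, was above background in every array but never bright, at 8.67 to 8.84 in JG cells, 7.73 to 8.36 in MM cells and 8.19 to 8.56 in diluted cortex. Cox6b2, the testis form of subunit VIb, had 6.77 to 7.55 in JG cells, 6.44 to 7.84 in MM cells and 8.79 to 9.13 in diluted cortex. Cox7b2 and Cox8b were at background on all 15 arrays. Cox8c, at 6.85 to 7.83 in JG cells, 6.32 to 6.96 in MM cells and 5.20 to 5.58 in diluted cortex, was above background in JG cell 8 alone, and its differences of 1.82 in JG cells and 1.24 in MM cells stand beside receptor medians that were 1.02 and 0.81 higher in these cells. It was the only member higher than diluted cortex by 1 log2 unit in either. Over all 19938 genes, 6531 were higher by that size in JG cells and 3431 in MM cells. Over the 9159 genes above background in diluted cortex the numbers were 594 and 512, with 0 of the 77 members among them in either. Outside the members, Ndufa4l2, a paralogue of Ndufa4 known as a hypoxia target, had 7.67, 11.49, 11.41, 10.92 and 7.27 in JG cells, 6.64 to 6.97 in MM cells and 6.52 to 7.65 in diluted cortex. It was bright in JG cells 5, 6 and 7. Cox4i2, the paralogue of Cox4i1 left out of the members, was at background in all 5 JG cells and read 11.48 in MM cell 14.

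Complex V, ATP synthase, had the widest spread of array medians among JG cells. Atp5l, subunit g, had 6.26, 6.38, 12.50, 12.54 and 12.83 in JG cells, 11.84, 12.19, 12.66 and 11.47 in MM cells and 11.96, 12.07 and 12.02 in diluted cortex. JG cells 4 and 5 were at background and the other 3 above all diluted cortex arrays, and its 5 other probe sets gave the same calls on every array. Of the 3 genes for the c ring, which encode the same mature subunit, Atp5g3 had 5.85, 5.94, 13.61, 13.43 and 11.80 in JG cells, 11.85 to 13.44 in MM cells and 13.57 to 13.73 in diluted cortex. Atp5g2 had 7.32, 7.22, 13.39, 12.38 and 13.36 in JG cells, 13.04 to 13.14 in MM cells and 12.65 to 12.79 in diluted cortex. Atp5g1 had 7.70, 7.50, 8.38, 12.85 and 13.06 in JG cells, 11.27 to 12.41 in MM cells and 12.47 to 12.76 in diluted cortex. None of the 3 was near the cortex level in JG cells 4 and 5. The catalytic head differed: Atp5b, the beta subunit, had 6.92, 6.73, 8.85, 12.25 and 6.76 in JG cells, 9.86 to 12.76 in MM cells and 12.90 to 13.09 in diluted cortex. Atp5a1, the alpha subunit, had 11.85, 8.03, 8.06, 9.50 and 7.94 in JG cells, 10.85 to 11.77 in MM cells and 12.99 to 13.05 in diluted cortex. Atp5e, the epsilon subunit of the central stalk, had 8.35, 13.20, 12.54, 12.45 and 12.86 in JG cells, 11.61 to 12.84 in MM cells and 12.24 to 12.41 in diluted cortex, so only JG cell 4 was below cortex. Atp5pb, subunit b, read 6.16 in JG cell 8 on its brightest probe set and 11.35 on its other. In JG cell 5 they read 7.95 and 10.78, so its level in both cells is uncertain.

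**Figure D3:**
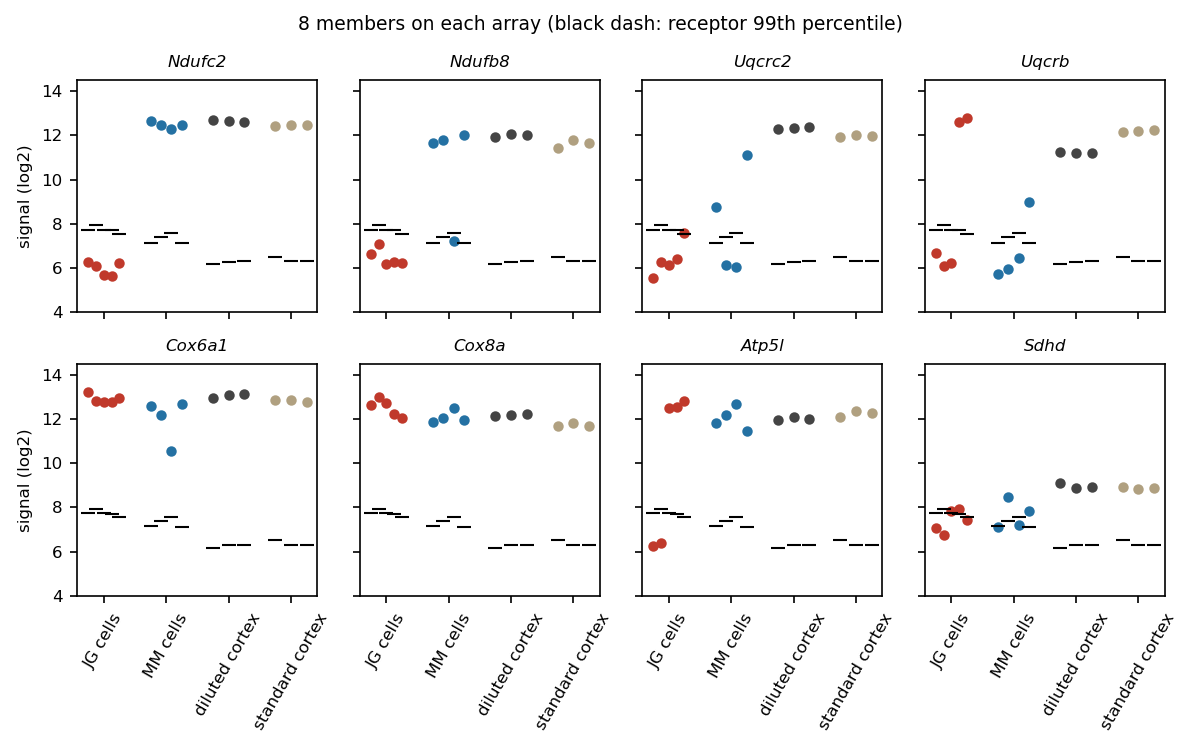
Deposited log2 signal (y axis) of 8 members on each array, with the groups on the x axis. Points are arrays, and black dashes mark the receptor 99th percentile of the same array. Ndufc2 and Ndufb8 are at background in all JG cells, Cox6a1 and Cox8a are bright in all cells, Uqcrb is bright in JG cells 7 and 8, and Atp5l is at background in JG cells 4 and 5 only.

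As a group, MM cells stood closer to diluted cortex than JG cells did. Over the 77 members above background in diluted cortex, the median was -0.61, -0.53, -2.04 and -0.49 in MM cells 14, 15, 16 and 19. MM cell 16 thus lay farther from cortex than JG cells 6 (-1.49) and 7 (-0.72). Of the 80 members, 40 were lower in MM cells by at least 1 log2 unit, with a median difference of -1.0, and 36 of the 72 bright members were lower. The background was 24.8% of all genes, 53.0% of the genes above background in diluted cortex and 77.1% of bright genes, whose median difference was -2.72. MM cell 16 decided much of the count: without it 26 members were lower and the median difference was -0.56. The count was 25 with group medians in place of means and 66, with a median of -1.85, when each array was centred on its receptor median. Shares of other genes were not counted without that cell or under these settings. By complex the median difference was -1.27 for complex I, -1.78 for II, -1.73 for III, -0.43 for IV and -0.47 for V. Over the 13 complex IV members above background in diluted cortex it was -0.87, farther from cortex than complex V. The lowest members were Uqcrb at -4.44, Uqcrc2 at -4.30, Ndufs1 at -4.23 and Ndufa6 at -3.44. Ndufa6, an accessory subunit, had 11.00, 12.48, 5.70 and 6.25 in MM cells and 12.23 to 12.33 in diluted cortex. Atp5g2, at 0.37, had the highest difference of the members above background in diluted cortex, and it was -0.48 with receptor median centring. Both cell comparisons use the same 3 diluted cortex arrays.

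JG cells were set against MM cells directly, which differ in age, reporter and, as far as recorded, sex. Of the 80 members, 49 were lower in JG cells by at least 1 log2 unit, with a median difference of -1.50. The background was 8.83% of all genes, 18.3% of genes above background in diluted cortex and 44.3% of bright genes, of which 48 of 72 members were lower. The median difference was 0.07 over the genes above background in diluted cortex and -0.74 over bright genes, against -1.62 over the bright members. For most members the cells of the groups overlapped: every JG cell lay below every MM cell for 5 of the 80 and above for 2. Over all 19938 genes the numbers were 225 and 1367. Among bright genes, every JG cell lay below every MM cell for 5 of 72 members and 111 of 1755 genes, and above for 1 member and 39 genes. By complex the median was -1.55 for I, -1.77 for II, -1.57 for III, 0.09 for IV and -1.97 for V, and -0.42 over the complex IV members above background in diluted cortex. Ndufc2 had the largest gap at -6.47, followed by Ndufs4 at -4.22 and Ndufb8 at -4.18. For Ndufs4 the groups overlap, since MM cell 15 read 6.26. Uqcrb, at 2.10, and Cox6c, at 1.69, were higher in JG cells by that size, against 2.19% of genes above background in diluted cortex. For Uqcrb JG cells 7 and 8 were the high ones, and the difference was 1.17 without cell 7 and 1.13 without cell 8. For Cox6c MM cell 16 was the low one, and the difference without it was 0.49, under the size counted. Without JG cells 4 and 5, 36 members were lower and the median difference was -0.81. The shares of other genes were not counted without these cells.

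**Figure D4:**
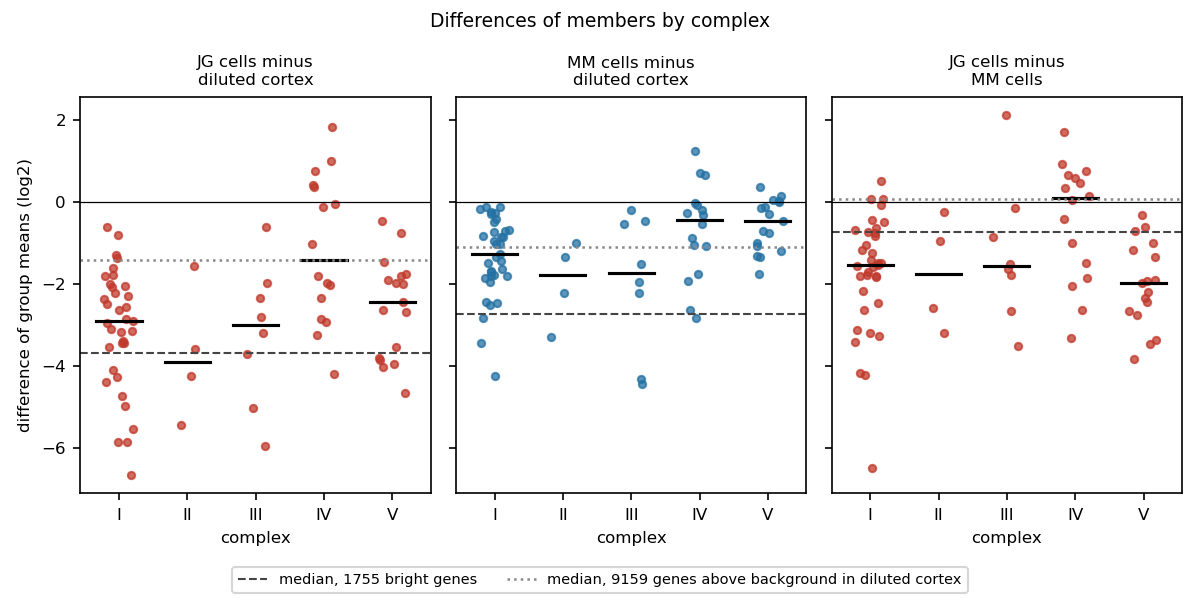
Difference of group means in log2 units (y axis) for each of the 80 members, by complex (x axis), in the 3 cell comparisons. Points are genes, black bars are medians per complex, the dashed line is the median of the 1755 bright genes and the dotted line that of 9159 genes above background in diluted cortex. Complex medians against diluted cortex run between -3.91 and -1.42 in JG cells and between -1.78 and -0.43 in MM cells. Over the complex IV members above background in diluted cortex alone, the medians were -1.97 in JG cells and -0.87 in MM cells.

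Other genes of the mitochondrion were read from lists, whose counts stand beside 59.6% of the genes above background in diluted cortex that were lower in JG cells, 53.0% that were lower in MM cells and 18.3% that were lower in JG than in MM cells. Lists bright in diluted cortex are better set beside the bright genes, of which 94.7%, 77.1% and 44.3% were lower in that order. In diluted cortex the citric acid cycle list had medians of 11.21 to 11.34 and mitochondrial ribosomal proteins 10.21 to 10.26. Of all 19938 genes, 6531 were higher than diluted cortex in JG cells and 3431 in MM cells. Of the 9159 above background in diluted cortex, 594 and 512 were higher. Of 74 mitochondrial ribosomal protein genes, 67 were lower by 1 log2 unit in JG cells than in diluted cortex (median -3.14), 48 in MM cells than in diluted cortex (median -1.88), and 39 in JG than in MM cells (median -1.24). For the 14 measured genes of the citric acid cycle and pyruvate dehydrogenase, all 14 were lower in both kinds of cell than in diluted cortex, with medians of -4.59 in JG cells and -3.08 in MM cells. Fh1, fumarate hydratase, was the lowest in JG cells, with 5.43 ± 0.43 in JG cells and 11.49 ± 0.06 in diluted cortex (SD, n = 5 and 3). Of 41 measured assembly factors, 33 were lower in JG cells and 31 in MM cells than in diluted cortex, with medians of -2.75 and -1.63, and 0 and 1 were higher. Among 13 regulators of mitochondrial gene expression, 7 were lower in each, about the share of all genes above background in diluted cortex, and Tfam, the packaging factor of mitochondrial DNA, averaged 5.08 ± 0.29 in JG cells, 5.12 ± 0.23 in MM cells and 9.83 ± 0.17 in diluted cortex (SD, n = 5, 4 and 3). Of 15 measured glycolysis genes, 12 were lower in JG cells and 6 in MM cells than in diluted cortex, with medians of -1.59 and -0.78, and 2 and 1 were higher. Cytosolic ribosomal protein genes, 55 in all, had 25 lower in JG cells and 0 in MM cells than in diluted cortex, with medians of -0.93 and 0.32, and 4 and 3 higher.

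The 2 cortex preparations were compared with each other. They differ in dilution, amplification and labelling, no label says that they share tissue or RNA, and these cannot be told apart. Markers of other cell types differed too: on diluted arrays the 4 leukocyte markers had medians of 7.55 to 7.76, against 6.03 to 6.27 on standard arrays, and the 4 endothelial markers had medians of 6.87 to 7.41, against 7.53 to 8.15 on standard arrays. Their part in the members' differences was not tested. Libraries A, B and C of each kind were compared with limma across 19531 probe sets, 78 members included (Cox7b2 and Cox8c did not pass the filter). At a Benjamini-Hochberg adjusted p under 0.05, 32 members were higher and 24 lower in diluted cortex, and 22 were not called. The background was 38.0% called higher and 36.7% called lower. No label says that the libraries came from separate animals, so these p-values measure the spread between libraries, which may be technical. The members' median log2 fold change was 0.08, and -0.00 over all probe sets. Differences over 1 log2 unit were found for 16 members that were higher and 5 that were lower. The share of all probe sets past that size was not counted, so no background stands beside these numbers. When each array was centred on its median, which moved the median of all probe sets to 0.20, 40 members were higher and 17 lower.

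The members that differed most between the cortex preparations belonged to complexes I, III and V. In complex I, Ndufs7, an iron-sulfur core subunit, averaged 12.32 ± 0.02 in diluted cortex and 9.64 ± 0.11 in standard cortex (SD, n = 3 each), a log2 fold change of 2.68 (SE 0.09, limma adjusted p = 1.21e-07). Ndufs6, an accessory subunit, went the other way, at 11.16 ± 0.01 in diluted cortex and 12.71 ± 0.06 in standard cortex, with a log2 fold change of -1.55 (SE 0.08, limma adjusted p = 8.42e-07). Ndufa8 was higher by 1.78 and Ndufa1 lower, at -1.30. In complex III, Uqcrc1 rose by 2.63 (SE 0.08, limma adjusted p = 8.77e-08) and Uqcrfs1 by 1.25, while Uqcrb and Uqcrh were lower, at -0.97 and -0.31. In complex V, Atp5d rose by 2.45 and Atp5g1 by 2.17, and Atp5md and Atp5j2 were lower, at -1.50 and -0.84. Complex II had 3 higher and 0 lower of 4, namely Sdhb at 1.09, Sdhc at 1.06 and Sdha at 0.55. In complex IV 3 were higher and 6 lower, and the extremes were Cox6a2 at 0.53 and Cox7a1 at -1.21. Of the markers, Uqcrc2 was higher by 0.37 (limma adjusted p = 0.00375) and Ndufb8 by 0.38 (limma adjusted p = 0.0139), while Ndufc2 differed by 0.19 (limma adjusted p = 0.0595). Some calls and sizes depended on the probe set. Ndufb11 was not called on its brightest probe set (-0.05), and its other, dimmer probe set gave 1.89. Ndufc1 and Cox7a2l were not called on the brightest either (0.009 and 0.005), and their other probe sets gave 2.07 and 0.49. Uqcr11 had 0.80 on its brightest and 2.46 on its other. Atp5h, called lower at -0.39, gave 0.02 and -0.02 on its others.

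**Figure D5:**
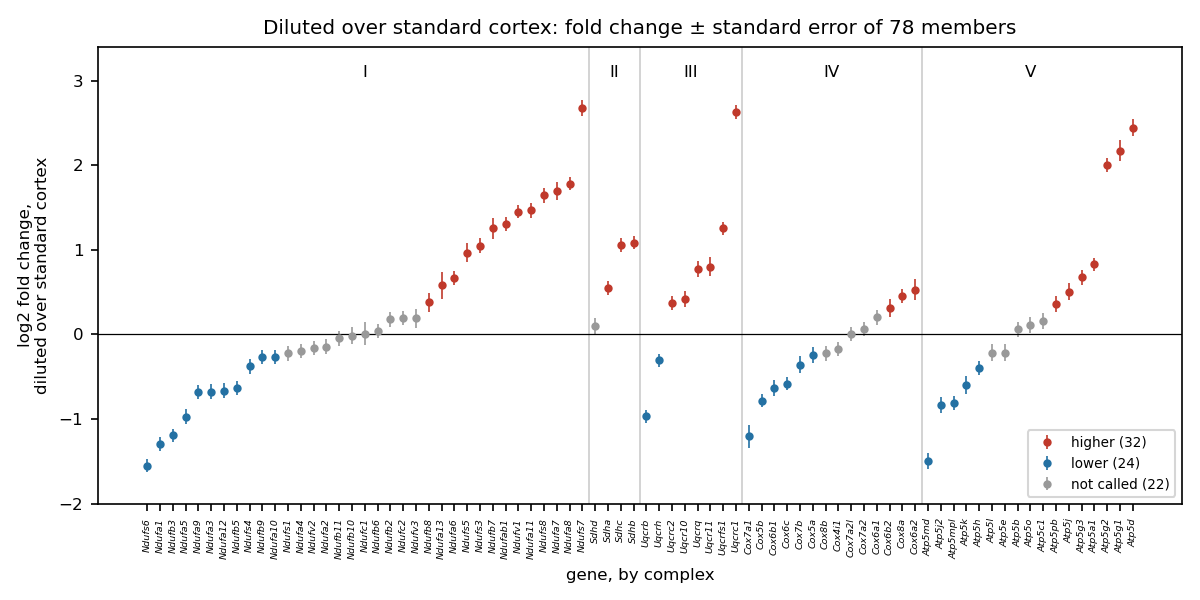
Log2 fold change of diluted over standard cortex (y axis) with its standard error for the 78 members tested (x axis, by complex), from 3 libraries of each kind. Red points are members called higher (32), blue points lower (24) and grey points not called (22), and the values run from -1.55 for Ndufs6 to 2.68 for Ndufs7.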

How the data were processed

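The deposited values are log2 signals per probe set. Per the submitters' processing notes the tool was Affymetrix Expression Console; version, summary method and scaling across arrays were not given in the sources used. The log2 values were therefore taken as deposited. Names come from the annotation of the platform, for probe sets with 1 symbol (21789 of 23410 listed), and all 80 members matched RefSeq (GRCm38.p6) by gene ID. Members and lists were chosen with earlier results of these data known.

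Genes with several probe sets took the brightest over the 15 arrays. Cell groups were compared by differences of means, without a test, with 1 log2 unit as the size that counts. Cortex libraries were compared with limma 3.58.1 (lmFit, eBayes) in R 4.3.3 with Benjamini-Hochberg adjusted p under 0.05, over probe sets whose higher group mean reached the median of all cortex values, and the fit was tested on simulated data. Deviations of libraries with the same letter were only weakly correlated (0.09, 0.07 and 0.02), against -0.10 to 0.04 for different letters. Letters were therefore not used as pairs in the main fit. Named genes were the markers Ndufc2, Ndufb8 and Uqcrc2, the 2 lowest and 2 highest members per complex and comparison, tissue isoforms, complex II, members above background on no array or in all cells of a kind, and up to 3 genes per list at either end. Alternatives covered scaling, probe set choice, thresholds and leaving out each array. No array has a count depth, and the number of arrays limits the precision. Protein lengths were not used here.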

Additional observations from a re-analysis of the deposited data

Results flagged for a closer look

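Each group of cells was searched for a cell far from the others, by the gap to its nearest neighbour over the range of the group, for 66 members and 7 summaries in both groups. Of 146 such results 21 stood out. Chance gives about 1 in 20 for normally spread values, but these values are mostly either bright or at background and many of the members were named for large differences, so the number that chance gives here is not known. In JG cells 11 were found. JG cell 8 stood apart with Atp5c1 at 12.78 and Sdha at 11.13, both high, and with Cox6c at 11.7 and Uqcr11 at 6.89, both low. JG cell 4 was low for Atp5e, at 8.35, and for Cox4i1, at 6.54. JG cell 5 was low for Atp5j2, at 6.67, and high for Uqcrfs1, at 8.33. JG cell 6 was high for Sdhb, at 11.4, and JG cell 7 for Atp5mpl, at 13.05, and for the complex III median, at 10.96.

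In MM cells all 10 lay in cell 16. Its median over all members was 10.14 and over complex IV 8.47, both low. Its values were low for Atp5c1 at 8.48, Atp5mpl at 8.03, Cox5a at 8.58, Cox6c at 7.4, Cox7a2 at 10.58, Ndufb8 at 7.2 and Sdhc at 10.44, and high for Cox7b2, at 5.48, which was under background in every cell.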

How the results depend on the processing

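The JG minus diluted cortex count of lower members (68) stayed between 52 and 75 under every alternative, and the JG minus MM count (49) between 36 and 57 except at a size of 2 log2 units, where it was 25. The MM minus diluted cortex count (40) moved more: it was 25 with group medians, 66 (median -1.85) with receptor median centring and 13 at a size of 2 log2 units. Leaving out each array in turn gave 64 to 69 lower members in JG cells and 26 to 44 in MM cells against diluted cortex, and 45 to 57 in JG against MM cells. The medians then ran from -2.91 to -2.34, from -1.20 to -0.56 and from -1.83 to -1.25. Leaving out each cell gave 51 to 64 members above background in all MM cells, 13 to 18 in all JG cells and 10 to 14 in 0 JG cells. With the receptor 95th percentile as background, 29 members were above it in all JG cells and 6 in none. For the cells, the shares of other genes were not counted under the alternatives. In cortex 53 to 56 members were called when a library was left out (31 to 33 higher, 22 to 24 lower). A replicate block by letter gave 56 calls, 32 higher and 24 lower; fitting all 15 arrays together, where the spread of the cells enters, gave 3, namely 2 higher and 1 lower.

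Some named differences of at least 1 log2 unit changed sign, and the cause was not tested. Against diluted cortex with group medians in JG cells these were Atp5h (0.31), Atp5l (0.48) and Cox4i1 (0.22), against MM cells Atp5h (0.10), Atp5l (0.48) and Cox6b1 (0.35). Quantile normalization turned Ndufa7 (0.14, against diluted cortex) and Ndufv3 (0.11, against MM cells), and leaving out each array turned Cox4i1 (-1.405 to 0.22 against diluted cortex, 0.22 without JG cell 4). Without JG cells 4 and 5, an alternative chosen after seeing the data, Atp5g2 (0.33), Atp5h (0.45), Atp5l (0.61) and Cox4i1 (0.14) turned against diluted cortex and Atp5g3 (0.059), Atp5h (0.31) and Atp5l (0.58) against MM cells. Named differences under 1 log2 unit changed sign more often: under at least 1 alternative, 10 of 11 did for JG cells against diluted cortex, 16 of 38 for MM cells against diluted cortex and 15 of 23 for JG against MM cells. Among the first were Atp5e (-0.46, and 0.42 without JG cell 4), Atp5j2 (-0.76, and 0.46 without JG cell 5) and Cox6a2 (0.42, and -0.63 with receptor median centring).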
